A study of Mus musculus with 16 samples.

Results

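The change that clozapine N-oxide (CNO) made in astrocyte ribosome-associated RNA was set against the change it made in whole striatal tissue of the same mice. For each mouse and gene, the log2 of the depth-scaled read count (CPM) in the tissue lysate, the input, was subtracted from log2 CPM in the immunoprecipitate (IP). That per-mouse value, IP minus input, was then compared between 4 CNO mice and 4 vehicle mice. All 16 libraries of the series enter, as 8 mouse differences, and 16264 of the 17097 genes in the table were tested, the other 833 having too few reads. Differences, changes and their standard errors (SE) are in log2 units, and CPM values are not scaled by transcript length, so levels are compared within a gene only.

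All 8 mice were labelled wild-type C57BL/6J males aged 63 days. The CNO group had received 1 mg/kg CNO and the vehicle group the vehicle, and whole striata were taken 2 h later. IP RNA came from ribosomes captured through a hemagglutinin (HA) tag that is described as astrocyte-specific, and input RNA came from the cleared lysate. The labels leave unnamed the receptor for CNO and the promoter, virus or strain behind the tag, and no mice given CNO without that receptor are analysed here. The design text counts 4 mice, but the titles hold 8 codes, each with 1 IP and 1 input library, and each code is treated here as 1 mouse. Were the replicates not separate animals, the p-values would measure only the spread between these samples.

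CNO is a small molecule used to switch on designer receptors, G protein-coupled receptors engineered so that they no longer answer to the natural transmitter. The title of the series names Gi signaling, the branch that in most cells lowers cyclic AMP and releases beta-gamma subunits, and in astrocytes is also known to raise intracellular calcium. Ribosome capture isolates transcripts that are on ribosomes of the tagged cells, while the lysate holds RNA of neurons, oligodendrocytes, microglia, vessels and astrocytes together. A gene that changes by the same factor in both fractions leaves IP minus input where it was. A higher value after CNO means that the gene moved further up, or less far down, on the ribosomes of tagged cells than in the tissue. More RNA and more of it on ribosomes cannot be told apart in this design, nor can fewer cells of a type and less RNA per cell.

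Library totals were between 52.1 and 61.5 M reads in IP and between 32.8 and 40.3 M reads in input. Of the 36 astrocyte markers tested, the median IP minus input was between 2.61 and 2.68 log2 in the 4 vehicle mice and between 2.50 and 2.71 in the 4 CNO mice, so the enrichment for astrocyte RNA overlapped between the groups. Of these markers 1, Ppp1r3c, was called higher after CNO and none lower, while limma-voom called 1 higher and 4 lower. Within IP 3 of the 36 rose and 9 fell. Aldh1l1, an astrocyte enzyme of folate metabolism, differed by 0.11 log2 (SE 0.11), Slc1a2, the main astrocyte glutamate transporter, by -0.13 (SE 0.19), Gfap, the intermediate filament of reactive astrocytes, by -0.09 (SE 0.12) and Rpl22, a ribosomal protein gene often used for ribosome tagging, by 0.04 (SE 0.12). None of the 4 passed the threshold (limma, adjusted p = 0.696, 0.791, 0.776 and 0.908). Chrm4, the muscarinic M4 receptor gene from whose human form a common Gi designer receptor was derived, had IP minus input of 2.10, 2.24, 2.34 and 2.00 in vehicle replicates 2 to 5 and 2.41, 2.38, 2.02 and 2.48 in CNO replicates 2 to 5. Those values overlap, and the difference was 0.16 (SE 0.13, limma, adjusted p = 0.616). Whether all reads counted to Chrm4 came from the mouse's own gene was not tested.

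After CNO more genes had shifted towards the IP than away from it. IP minus input was higher in CNO mice for 806 genes, 4.96% of those tested, and lower for 150 genes, 0.922% (limma, adjusted p under 0.05). The difference was at least 2-fold for 201 genes (1.24%) that were higher and for 10 genes (0.0615%) that were lower. The genes that were higher included many immediate early, cyclic AMP-responsive and cholesterol synthesis genes, and single receptors and cytokines of the interleukin-6 family. Those that were lower included Pik3ip1 and Nim1k. In the Notch, BMP, and hedgehog and Wnt lists, 2 of 19, 1 of 21 and 1 of 29 genes were lower. The Notch and BMP lists also held 1 higher gene each, and all of these calls were lost under some alternative setting. The 4 CNO values lay outside the 4 vehicle values for all 956 called genes, and for 2329 genes (14.3%) whether called or not, 1628 of them higher (10%) and 701 lower (4.31%). The split between the directions depended on the scaling: 84.3% of the calls were higher as deposited, 65.8% with upper quartile scaling (626 higher and 325 lower) and 71.4% when each mouse's differences were centred on their median (647 higher and 259 lower).

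Most of these differences arose on the ribosome side. Within IP alone, 1573 genes rose (9.67%) and 1075 fell (6.61%), with 59.4% of the calls upward as deposited and 38.7% with upper quartile scaling. Within input alone, 130 genes rose (0.799%) and 29 fell (0.178%), so the tissue as a whole showed a much shorter list. Among the 806 genes that were higher, the median change was 0.67 log2 in IP and 0.06 in input, and the IP change was the larger for 749. Among the 150 that were lower, the median change was -0.44 in IP and -0.00 in input, and the IP change was the larger for 139. The IP and input changes and the difference are taken from the same libraries, so they are shown as the parts of one value and not as separate support for it.

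**Figure D1:**
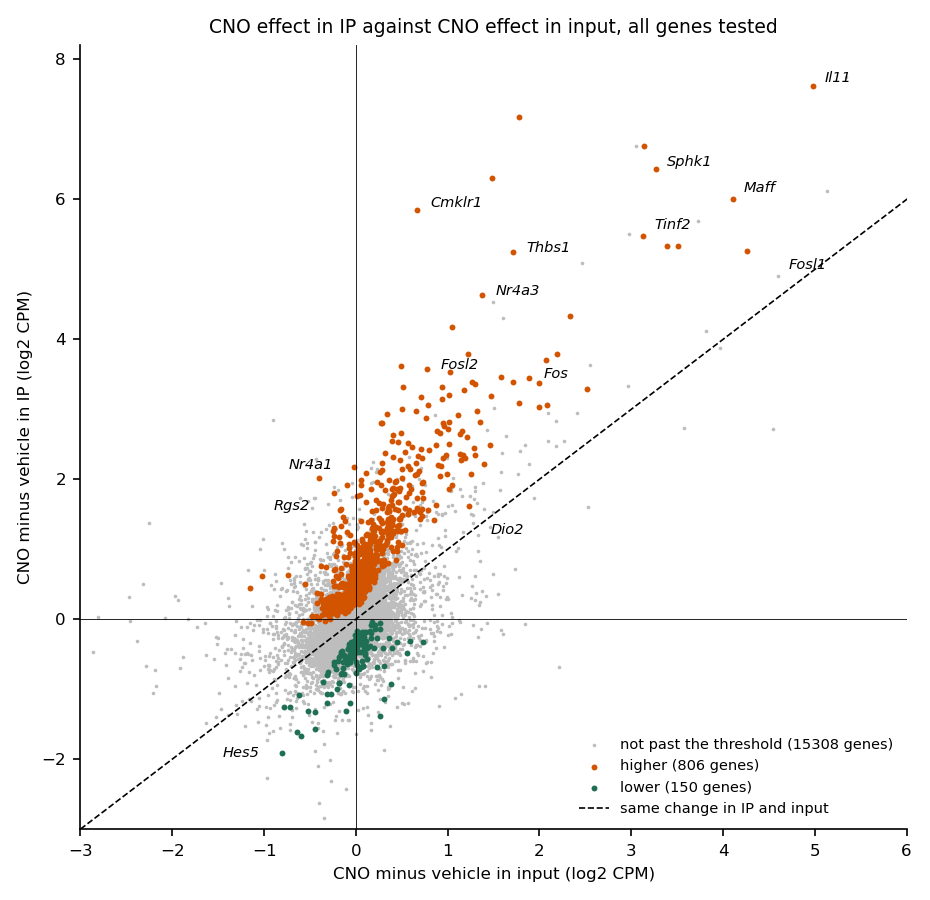
Change after CNO in log2 CPM in input (horizontal axis) and in IP (vertical axis) for every gene tested, with genes coloured by the call on IP minus input and a dashed line where both changes are equal. Genes called higher (806) lie above the line, mostly near 0 on the input axis, and genes called lower (150) lie below it.

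For 152 of the 806 genes (0.935% of those tested), IP was below input in all 4 vehicle mice and above input in all 4 CNO mice. For 17 of the 150 (0.105%) the order was the reverse. Of the genes that were higher, 47.3% had a mean IP level above input in vehicle mice, against 78.0% of those that were lower and 49.6% of all genes tested. The vehicle value is part of the difference behind each call, so these shares are a description.

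Cmklr1, the chemerin receptor gene, had the largest difference among the genes that reached a mean of 5 CPM in at least 1 group. In IP its level was 0.794, 0.514, 0.626 and 0.778 CPM in vehicle replicates 2 to 5 and 36.8, 39.5, 35.3 and 42.4 CPM in CNO replicates 2 to 5. In input it was 5.12, 3.79, 4.998 and 8.59 CPM with vehicle and 7.73, 9.04, 7.96 and 9.40 CPM with CNO. The IP groups are far apart while the input groups overlap. IP minus input went from between -3.46 and -2.69 in vehicle mice to between 2.13 and 2.25 in CNO mice, a difference of 5.18 (SE 0.15, limma, adjusted p = 1.37e-05), or 36.4-fold. A transcript that was scarcer on captured ribosomes than in the lysate was therefore richer there after CNO in every mouse. The gene lies on the minus strand at chr5:113612354-113650426 (GENCODE M21, GRCm38). Rarres2, which encodes the ligand chemerin, differed by -0.16 (SE 0.13, limma, adjusted p = 0.604).

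Some other G protein-coupled receptor genes were also higher, named singly here and not counted as a list. Gpr4, a proton-sensing receptor, had 0.531, 0.514, 0.551 and 0.429 CPM in vehicle IP and 10.3, 7.48, 8.88 and 10.1 CPM in CNO IP, and its difference was 3.13 (SE 0.37, limma, adjusted p = 0.00275). Its input values of 0.526, 0.441, 1.25 and 1.08 CPM with vehicle and 1.85, 1.47, 1.42 and 1.49 CPM with CNO did not overlap either, and the input change of 1.05 (SE 0.34) did not pass (limma, adjusted p = 0.293). Gpr3, a receptor that raises cyclic AMP without a known ligand, was higher by 2.51 (SE 0.18, limma, adjusted p = 0.000303). Its gene overlaps Cd164l2, and whether the counting used strand is not given in the sources used here. S1pr3, a sphingosine-1-phosphate receptor, was higher by 1.13 (SE 0.18, limma, adjusted p = 0.0108), a call that was lost when the mouse was left out of the fit (adjusted p = 0.208). Of 15 muscarinic receptor, Gi/o subunit and regulator genes, 1 was higher (6.67%, against 4.96% of all genes tested) and none lower. That gene was Rgs2.

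Rgs2 encodes a regulator that speeds the switching off of Gq and, less strongly, Gi proteins, and it is a known cyclic AMP-responsive gene. Its IP level was 44.5, 58.2, 45.1 and 46.7 CPM in vehicle replicates 2 to 5 and 142, 130, 125 and 136 CPM in CNO replicates 2 to 5. Its input level was 156, 201, 157 and 210 CPM with vehicle and 131, 174, 207 and 147 CPM with CNO. The IP groups do not overlap and the input groups do. In the difference Rgs2 was higher by 1.61 (SE 0.19, limma, adjusted p = 0.00286), with a change of 1.46 in IP and -0.14 in input. 

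**Figure D2:**
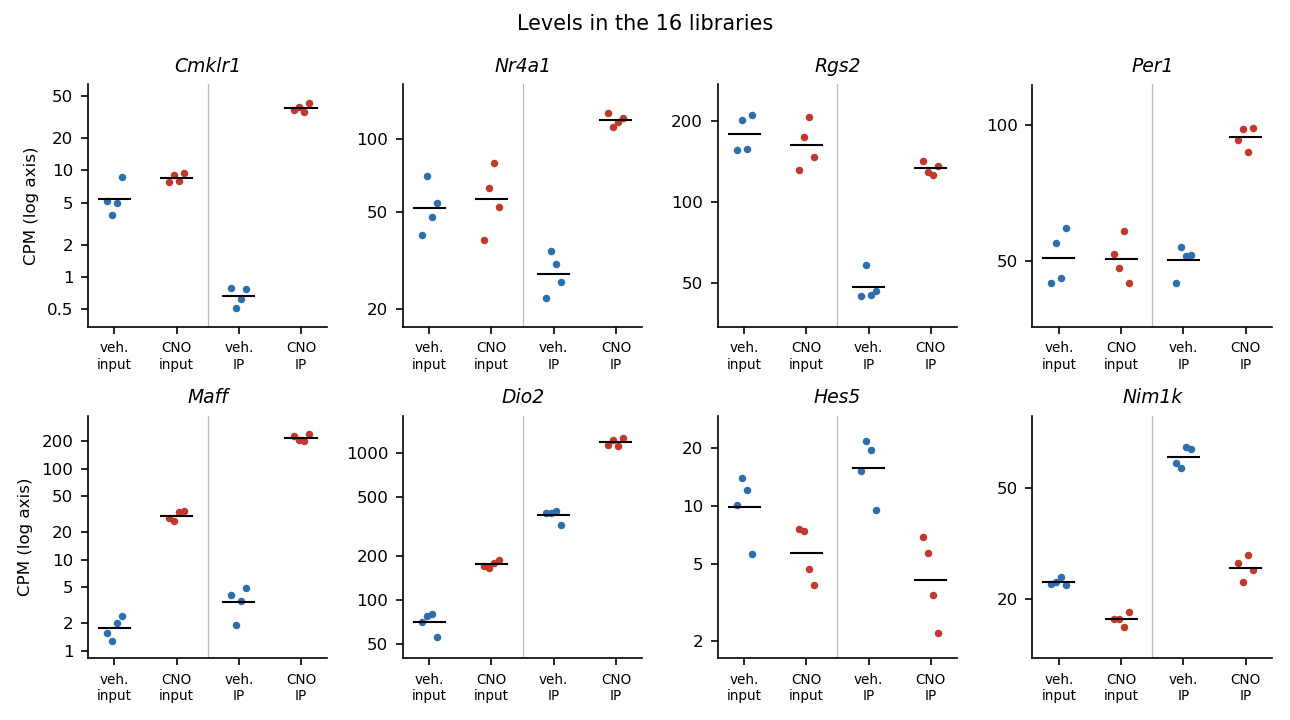
CPM on a log axis in vehicle and CNO mice for IP and input libraries of 8 genes, 1 point per library, with a bar at the geometric mean of each group. For Cmklr1, Nr4a1, Rgs2 and Per1 the IP groups separate while the input groups overlap, for Maff and Dio2 both fractions rise, and for Hes5 and Nim1k the CNO IP values lie below the vehicle IP values.

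Immediate early genes, which cells switch on within minutes to hours without new protein synthesis, formed a main group. Of 31 tested, 22 were higher and none was lower, with a median difference of 1.19 against 0.02 over all genes tested. Within IP 24 rose and 1 fell, and within input 13 rose and none fell, so the tissue also moved but less far. The list's median IP minus input was between -0.71 and -0.33 in the 4 vehicle mice and between 0.80 and 1.55 in the 4 CNO mice. With vehicle these transcripts were thus mostly poorer in the IP than in the lysate, and after CNO they were richer in it.

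The 3 NR4A genes, orphan nuclear receptors induced by calcium and cyclic AMP, were all higher. Nr4a3 had 3.27, 3.93, 5.08 and 3.74 CPM in vehicle IP and 98.0, 91.0, 98.5 and 105 CPM in CNO IP, while input went from between 3.52 and 4.75 CPM to between 8.85 and 12.7 CPM. Both fractions separated, and IP moved further: the difference was 3.26 (SE 0.14, limma, adjusted p = 5.66e-05). Nr4a1 had 22.1, 34.7, 30.5 and 25.9 CPM in vehicle IP and 127, 112, 117 and 122 CPM in CNO IP. Its input level was 40.1, 70.3, 47.8 and 54.2 CPM with vehicle and 38.2, 62.96, 79.7 and 52.4 CPM with CNO. Input did not separate for Nr4a1, where the change was 0.12, and the difference was 1.98 (SE 0.24, limma, adjusted p = 0.00348). Nr4a2 was higher by 1.73 (SE 0.30, limma, adjusted p = 0.0151), a call lost when the mouse was left out of the fit (adjusted p = 0.247).

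The AP-1 transcription factors, built of Fos and Jun family proteins, differed in how much of their rise the lysate also showed. Fos had 27.1, 18.8, 25.8 and 40.9 CPM in vehicle IP and 340, 237, 265 and 359 CPM in CNO IP, with input going from between 11.2 and 18.4 CPM to between 47.6 and 64.1 CPM. Neither fraction overlapped between the groups, and the difference was 1.56 (SE 0.25, limma, adjusted p = 0.0111). Fosl2 went from a mean of 20.3 to 239 CPM in IP and from 30.8 to 52.6 CPM in input, a difference of 2.79 (SE 0.13, limma, adjusted p = 6.89e-05). Fosb (2.11, SE 0.17), Junb (1.62, SE 0.20) and Jun (0.85, SE 0.12) were also higher (limma, adjusted p = 0.000543, 0.0035 and 0.00626). Fosl1 was not: it rose by 4.91 in IP and by 4.59 in input, and its difference was 0.32 (SE 0.22, limma, adjusted p = 0.531).

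Maff and Atf3, basic leucine zipper factors that bind near AP-1 and cyclic AMP response elements, rose steeply in both fractions. Maff had 4.10, 1.93, 3.52 and 4.84 CPM in vehicle IP and 228, 207, 203 and 244 CPM in CNO IP. In input it had 1.57, 1.29, 2.04 and 2.40 CPM with vehicle and 28.5, 26.9, 33.2 and 34.2 CPM with CNO. The rise of 6.01 log2 in IP exceeded that of 4.10 in input by 1.91 (SE 0.18, limma, adjusted p = 0.000997). Atf3 was higher by 1.83 (SE 0.27, limma, adjusted p = 0.00709). Klf4, a zinc finger factor, and Gadd45b, a stress-response gene, were higher by 2.51 (SE 0.23) and 2.37 (SE 0.17), with limma's adjusted p = 0.000997 and 0.000251.

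A few activity genes often studied in neurons did not pass the threshold, while others that neurons also induce, such as Fos, Fosb, Junb and Nr4a1, were higher. The values here are thus of single genes and not of a class. Arc, which encodes a synaptic capsid-like protein, had a difference of 0.39 (SE 0.13), Npas4, a neuronal activity-induced factor, 0.25 (SE 0.12), Egr3 0.08 (SE 0.14) and Egr4 0.28 (SE 0.19), and none passed (limma, adjusted p = 0.142, 0.287, 0.836 and 0.489). Egr1 and Egr2, zinc finger factors of the same family as Egr3 and Egr4, were higher by 1.02 (SE 0.18) and 1.34 (SE 0.22), with limma's adjusted p = 0.0175 and 0.0109. In input the changes of Egr1 and Egr2 were -0.07 and -0.10, and neither passed. The call of Egr1 was lost without CNO replicate 5 or without vehicle replicate 2 (adjusted p up to 0.0599), and that of Egr2 when the mouse was left out of the fit (adjusted p = 0.0607).

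Of 15 genes known to respond to cyclic AMP, 12 were higher and none lower, with a median difference of 1.15. Within IP the median change was 1.57 and in input 0.18. Besides the NR4A genes, Fos and Rgs2, they included Crem, a repressor of the CREB family (1.58, SE 0.09), Sik1, a kinase that restrains CREB coactivators (1.19, SE 0.16), and Pde4b and Pde4d, phosphodiesterases that break down cyclic AMP (1.15, SE 0.12, and 1.05, SE 0.09). Limma's adjusted p for these was 0.000121, 0.00427, 0.00154 and 0.000556. Per1, a clock gene with response elements for both cyclic AMP and glucocorticoids, had 44.7, 53.7, 51.3 and 51.6 CPM in vehicle IP and 92.8, 98.2, 87.0 and 98.4 CPM in CNO IP. Its input level stayed between 44.8 and 59.2 CPM in all 8 mice, with the groups overlapping. Its difference was 0.91 (SE 0.13, limma, adjusted p = 0.00627). The cyclic AMP list and the immediate early list share members, so their counts are not separate.

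**Figure D3:**
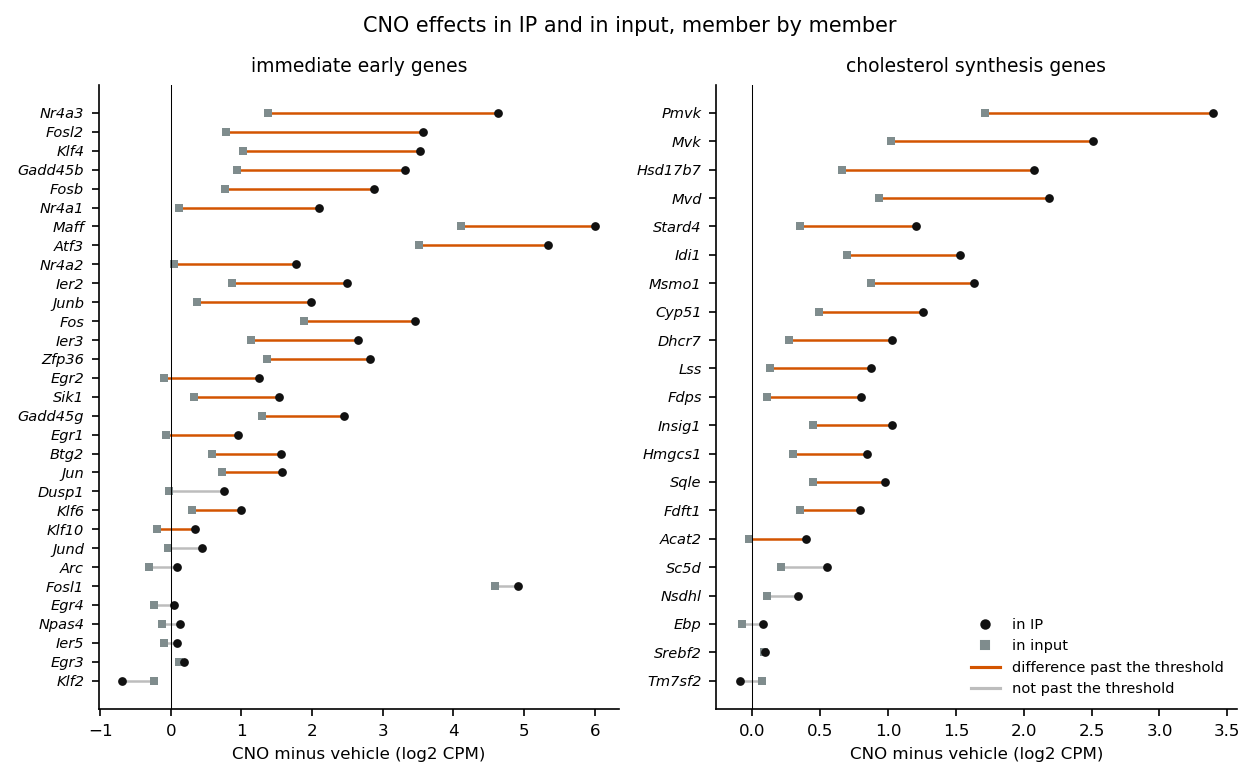
Change after CNO in IP and in input, in log2 CPM, for 31 immediate early genes and 21 of the 25 cholesterol synthesis genes tested. For most members the IP point lies to the right of the input point, with a median IP change of 1.77 against 0.37 in input for the immediate early genes and of 0.97 against 0.35 for the whole list of cholesterol genes.

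Promoters were searched for the letters of the cyclic AMP response element, since cyclic AMP-responsive genes were among those that were higher. RefSeq promoter windows (GRCm38.p6) of the 250 bases before a start were matched to 11951 of the 16264 genes tested. The full element TGACGTCA, read on both strands, stood in the windows of 40 of 624 genes that were higher (6.41%), of 13 of the 155 that were at least 2-fold higher (8.39%), of 3 of 114 that were lower (2.63%) and of 351 of all 11951 (2.94%). The 4 stretches here are shown as examples of the full element, in capitals, in genes that were at least 2-fold higher, and each is read 5′ to 3′ on the gene's own strand.
Tinf2: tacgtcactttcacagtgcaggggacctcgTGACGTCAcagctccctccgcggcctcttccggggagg
Ell2: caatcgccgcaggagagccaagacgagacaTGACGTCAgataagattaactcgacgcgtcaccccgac
Maff: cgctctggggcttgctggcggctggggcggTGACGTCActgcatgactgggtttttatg
Ppp1r15a: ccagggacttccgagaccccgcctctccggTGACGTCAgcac
The Tinf2 stretch is chr14:55681836-55681903 on the minus strand, with the element beginning 56 bases before the start. The Ell2 stretch is chr13:75707256-75707323 on the plus strand, 198 bases before. The Maff stretch is chr15:79347461-79347519 on the plus strand, 29 bases before, and the Ppp1r15a stretch is chr7:45526269-45526310 on the minus strand, 12 bases before. Each start is a RefSeq one. The Ell2 and Maff stretches lie inside the GENCODE M21 spans of their genes, chr13:75706757-75772364 and chr15:79346621-79359076.

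These 4 genes span the range from a rise in both fractions to one mostly in IP. Tinf2, a telomere-binding shelterin subunit gene, rose by 5.48 in IP and by 3.13 in input, a difference of 2.35 (SE 0.12, limma, adjusted p = 7.27e-05). It overlaps Gmpr2, so with the strand setting unknown the reads of the pair cannot be told apart. Ell2, an elongation factor of RNA polymerase II, rose by 2.67 in IP, while its input change of 0.49 did not pass, and the difference was 2.18 (SE 0.08, limma, adjusted p = 2.83e-05). Ppp1r15a, which reverses the phosphorylation of the initiation factor eIF2 and overlaps Tulp2, was higher by 1.80 (SE 0.18, limma, adjusted p = 0.00114).

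The shorter letters TGACG, which also lie inside TGACGTCA, stood in the windows of 46.3% of the genes that were higher, 51.0% of those at least 2-fold higher, 31.6% of those lower and 28.6% of all. The windows of the genes that were higher were slightly richer in G and C, with a median of 61.6% against 59.4%. Within windows of like composition the shares were 41.3% against 19.2% below 50% GC, 45.2% against 28.9% from 50 to 60%, 48.2% against 32.4% from 60 to 70% and 45.8% against 29.4% from 70% up, for the genes higher and for all genes in turn. Of the cyclic AMP list, 10 of 12 matched windows (83.3%) held TGACG. That list was made of genes known to respond to cyclic AMP, so its share describes that choice. The AP-1 letters TGANTCA stood in 8.81% of the windows of genes that were higher, 12.3% of those at least 2-fold higher and 5.70% of all. These are matches of letters only, counted without a test, and nothing was measured of what binds there.

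Feedback regulators of the MAP kinase cascade, which relays growth factor and receptor signals to the nucleus, were the next group. Of 18 tested, 8 were higher and none lower, with a median difference of 0.51. Dusp5, a nuclear phosphatase of ERK, had 1.83, 2.15, 1.89 and 2.36 CPM in vehicle IP and 17.9, 15.95, 14.1 and 17.8 CPM in CNO IP. Input went from between 3.77 and 5.45 CPM to between 5.35 and 8.24 CPM, with the groups overlapping by a little, and the difference was 2.50 (SE 0.19, limma, adjusted p = 0.000378). Myc (1.71, SE 0.10), the Sprouty genes Spry1 (0.96, SE 0.12) and Spry2 (0.84, SE 0.11), and Dusp4 (0.89, SE 0.07) were higher as well (limma, adjusted p = 0.000121, 0.00363, 0.00435 and 0.000543). Dusp6, another ERK phosphatase often taken as a readout of the cascade, had a difference of -0.00 (SE 0.13, limma, adjusted p = 0.995).

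Genes that serum response factor (SRF) and YAP are known to drive, many of them of the actin cytoskeleton, had 9 of 20 members higher and none lower, with a median difference of 0.36. Tpm4, a tropomyosin, was higher by 2.20 (SE 0.10) and Flna, the actin crosslinker filamin A, by 1.85 (SE 0.09), both with limma's adjusted p = 6.89e-05. Actg1, cytoplasmic actin, was higher by 0.61 (SE 0.07, limma, adjusted p = 0.00264), with a change of 0.03 in input. Of the 16 members with a promoter window, 4 held a CArG box, the known SRF element, against 1.36% of all windows and 9 of the 624 of genes that were higher (1.44%). The members were listed as known targets, so their share describes that choice.

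Thbs1, the synapse-promoting matrix protein thrombospondin 1, belongs to that list and to the 26 thrombospondins and synapse-organizing factors. Its IP level was 2.20, 1.59, 1.64 and 1.18 CPM in vehicle replicates 2 to 5 and 66.0, 49.1, 57.2 and 76.3 CPM in CNO replicates 2 to 5. Its input level was 1.39, 1.84, 1.95 and 3.12 CPM with vehicle and 7.08, 4.84, 7.17 and 7.24 CPM with CNO. Both fractions separated. The IP rise of 5.25 exceeded the input rise of 1.71 by 3.54 (SE 0.39, limma, adjusted p = 0.00209). Of the other synapse-organizing factors none was higher and 1 was lower, Wnt5a, a secreted Wnt ligand (-0.66, SE 0.14, limma, adjusted p = 0.0362). The call of Wnt5a was lost without any single mouse other than vehicle replicates 2 and 5 (adjusted p up to 0.101), and when the mouse was left out of the fit (adjusted p = 0.248).

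Of 17 genes of the interleukin-6 cytokine family, its receptors and its feedback, 6 were higher and none lower, with a median difference of 0.25. Among the ligands, Il11 rose from 0.419, 0.224, 0.381 and 0.502 CPM in vehicle IP to 72.1, 65.8, 71.8 and 80.5 CPM in CNO IP. In input Il11 rose from between 0.322 and 0.474 CPM to between 10.01 and 15.02 CPM, so the cytokine appeared in both fractions, and the difference was 2.65 (SE 0.31, limma, adjusted p = 0.00268). Clcf1, another ligand of the family, was higher by 2.56 (SE 0.24, limma, adjusted p = 0.00104), reaching a mean of 3.01 CPM. Lif rose by 2.21 in IP and by 1.88 in input, and its difference of 0.33 (SE 0.20) did not pass (limma, adjusted p = 0.449). Il6 was higher by 3.63 (SE 0.76, limma, adjusted p = 0.0328) from means of 0.0657 to 4.62 CPM in IP, and its call was lost without any single mouse other than vehicle replicates 2 and 4 (adjusted p up to 0.0886).

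Among the receptors of that family, Il6ra, the ligand-binding chain, had 2.35, 1.82, 2.22 and 1.79 CPM in vehicle IP and 9.13, 13.0, 10.6 and 9.73 CPM in CNO IP. Its input values overlapped, and its difference was 2.06 (SE 0.22, limma, adjusted p = 0.00188). The shared signalling chain Il6st (-0.13, SE 0.10) and the oncostatin M receptor gene Osmr (0.25, SE 0.12) did not pass (limma, adjusted p = 0.574 and 0.337), although Osmr rose by 1.498 within IP. Socs3, the feedback inhibitor of the pathway, rose by 5.34 in IP and by 3.39 in input, and its difference was 1.95 (SE 0.14, limma, adjusted p = 0.000249). The factor Stat3 was higher by 0.56 (SE 0.10, limma, adjusted p = 0.0139). The calls of Socs3 and Stat3 were lost when the mouse was left out of the fit (adjusted p = 0.08 and 0.245).

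Of 16 chemokine and chemokine receptor genes 3 were higher and none lower, Cmklr1, Ccl7 and Ccl2. Ccl7 and Ccl2, ligands that draw monocytes, were higher by 1.64 (SE 0.26) and 1.04 (SE 0.19), with limma's adjusted p = 0.0102 and 0.0166. Both calls were lost when the mouse was left out of the fit (adjusted p = 0.483 and 0.717), and that of Ccl2 also without CNO replicate 5 or vehicle replicate 2 (up to 0.0556). Of 12 genes that earlier work had linked to an A2 reactive state after ischemia 4 were higher (Sphk1, Clcf1, Ptgs2 and Emp1) and none lower. None of 11 linked to an A1 state was called in either direction. Of those 11, 1 was higher and 1 lower at an unadjusted p under 0.05 by limma, and limma-voom called 1 higher. In a pan-reactive list 1 of 13 was higher, S1pr3 (7.69%, against 4.96% of all genes tested). The call of Sphk1, sphingosine kinase 1, with a difference of 3.16 (SE 0.56, limma, adjusted p = 0.0174), was lost without CNO replicate 2 or 3 or vehicle replicate 3 (up to 0.0548). Those of Ptgs2 and Emp1 (limma, adjusted p = 0.0153 and 0.00987) were lost when the mouse was left out of the fit (adjusted p = 0.164 and 0.25), and that of Ptgs2 without vehicle replicate 2 (adjusted p = 0.0556).

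Hbegf, an EGF receptor ligand, is a secreted protein outside those families. Its IP mean went from 46.2 to 162 CPM and its input mean from 20.7 to 31.2 CPM, and it was higher by 1.23 (SE 0.09, limma, adjusted p = 0.000351). Of the 23 FGF and EGF family genes, Hbegf and the receptor gene Fgfr2 (0.99, SE 0.17, limma, adjusted p = 0.0153) were higher and none was lower. That share is 8.70%, against 4.96% of all genes tested. The annotated span of Fgfr2 overlaps many other genes, among them Ate1 and Tacc2, and the strand setting is not given. The call of Fgfr2 was lost without CNO replicate 3, CNO replicate 5 or vehicle replicate 2 (up to 0.0579).

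**Figure D4:**
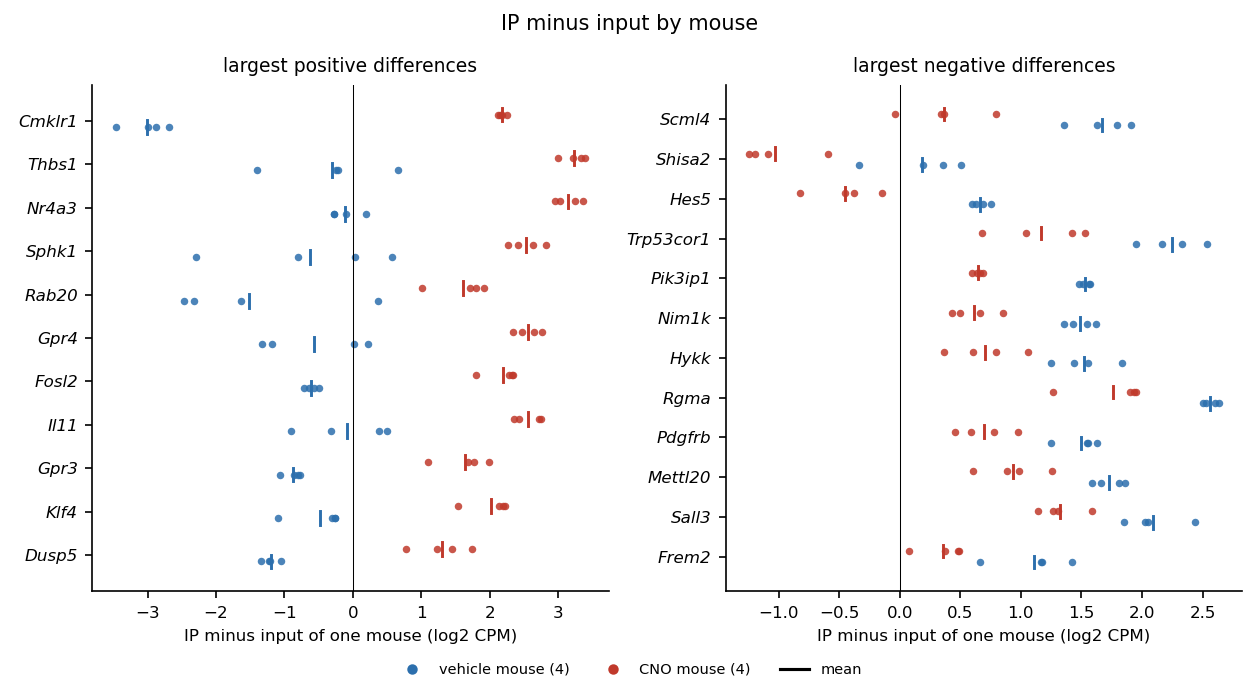
IP minus input in log2 CPM in each of the 8 mice for 11 of the 12 genes with the largest positive and the 12 with the largest negative differences among those chosen by rule, with vehicle and CNO mice as separate points. Genes were chosen only where the 4 CNO values lay apart from the 4 vehicle values, so that separation is part of the choice. The differences run from 5.18 for Cmklr1 to -1.31 for Scml4. Rab20 lost its call without CNO replicate 2, 3 or 5 or vehicle replicate 2, 4 or 5 (limma, adjusted p up to 0.073).

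Among the metabolic lists, cholesterol synthesis had the most members higher. Astrocytes are a main source of cholesterol in the adult brain, and the mevalonate pathway feeds it. Of 25 genes tested, 18 were higher and none lower, with a median difference of 0.69. The list's median IP minus input was between 0.96 and 1.09 in vehicle mice and between 1.70 and 1.88 in CNO mice. These genes were thus already richer in IP with vehicle, and more so after CNO.

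The kinases Pmvk and Mvk of the mevalonate pathway were among the members with the largest differences, while Acat2 had the smallest of the 18 that were higher. Pmvk, phosphomevalonate kinase, had 43.5, 43.3, 39.6 and 40.7 CPM in vehicle IP and 461, 507, 382 and 415 CPM in CNO IP, and input rose from between 25.01 and 26.2 to between 78.5 and 91.5 CPM. Neither fraction overlapped, and the Pmvk difference was 1.68 (SE 0.10, limma, adjusted p = 0.000121). Mvk, mevalonate kinase, was higher by 1.49 (SE 0.09), Hsd17b7, a later sterol reductase, by 1.41 (SE 0.10) and Idi1, isopentenyl diphosphate isomerase, by 0.83 (SE 0.08), with limma's adjusted p = 0.000149, 0.000239 and 0.00117. Insig1, a sterol-sensing brake on the pathway, was higher by 0.58 (SE 0.08, limma, adjusted p = 0.00674).

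Not every member moved. Of the 25, 7 did not pass, among them Srebf2, the transcription factor that drives the pathway, with a difference of 0.01 (SE 0.09, limma, adjusted p = 0.972). The sterol element letters TCACNCCAC stood in 1 of the 17 matched windows of the list (5.88%), against 1.26% of all. Of 15 fatty acid synthesis genes, 1 was higher (6.67%, against 4.96% of all genes tested) and none lower. That gene was Elovl6 (0.34, SE 0.08, limma, adjusted p = 0.0436), whose call was lost without any single mouse other than CNO replicate 2 and vehicle replicate 5 (up to 0.132), and when the mouse was left out of the fit or either rescaling was used (up to 0.0991).

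Stress pathways of protein folding and amino acid supply also held genes that were higher. Of 27 chaperones and unfolded protein response genes of the endoplasmic reticulum, 11 were higher and none lower, with a median difference of 0.32. Within IP 21 of the 27 rose, and within input 2. Hspa5, the main chaperone of the compartment, had 444, 428, 412 and 449 CPM in vehicle IP and 1094, 1052, 1005 and 1036 CPM in CNO IP. Its input values, from 308 to 427 CPM and from 375 to 501 CPM, overlap, and the difference was 0.93 (SE 0.13, limma, adjusted p = 0.00495). Xbp1, a factor whose mRNA is spliced in this response, was higher by 0.95 (SE 0.12), and Manf, a secreted folding factor, by 0.74 (SE 0.06), with limma's adjusted p = 0.00348 and 0.000407. The ER stress element, CCAAT and CCACG with 9 bases between them on either strand, stood in 9 of the 23 matched windows of the list (39.1%). Of all 11951 windows 20 held it (0.167%). The list was made of genes known for this response, so its share describes that choice. Among the genes that were higher it stood in 2 of 624 windows (0.321%), and in none of the 155 of genes at least 2-fold higher.

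Of 30 genes of the ATF4 amino acid response and tRNA synthetases, 10 were higher and 1 lower, with a median difference of 0.21. Atf4, the factor that links these pathways, was in the preceding list and had 76.7, 79.2, 67.2 and 85.7 CPM in vehicle IP and 246, 232, 213 and 221 CPM in CNO IP. Its input means went from 74.0 to 102 CPM, and its difference was 1.10 (SE 0.10, limma, adjusted p = 0.000633). Ddit3, the factor CHOP, was higher by 1.09 (SE 0.13), Chac1, a glutathione-degrading target of it, by 1.54 (SE 0.19), Mthfd2, a mitochondrial folate enzyme, by 1.37 (SE 0.14) and the amino acid transporter chains Slc7a5 and Slc3a2 by 0.97 (SE 0.12) and 0.84 (SE 0.10). Limma's adjusted p for these was 0.00327, 0.00348, 0.00128, 0.00352 and 0.00277. The lower gene was Ddit4, an inhibitor of mTORC1 that glucocorticoids induce (-0.44, SE 0.07, limma, adjusted p = 0.0117), and its call was lost when the mouse was left out of the fit (adjusted p = 0.144).

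Of 22 cytosolic heat shock genes 2 were higher (9.09%, against 4.96% of all genes tested) and none lower. The median difference of the list, 0.04, turned to -0.02 with upper quartile scaling and to -0.00 with median centring. Bag3, a cochaperone, was higher by 1.04 (SE 0.17, limma, adjusted p = 0.0117), and Hspa4 was the other. The call of Hspa4 (0.33, SE 0.06, limma, adjusted p = 0.0235) was lost without CNO replicate 2, 4 or 5 or vehicle replicate 2 or 5, each left out alone (up to 0.0881), and with upper quartile scaling (adjusted p = 0.0501). Of 18 antioxidant genes known as targets of Nrf2, 3 were higher and none lower. Among them Srxn1, sulfiredoxin, stood out with 95.7, 98.7, 86.7 and 106 CPM in vehicle IP and 848, 905, 879 and 921 CPM in CNO IP. Its input rose from between 115 and 125 to between 218 and 261 CPM, and the difference was 2.19 (SE 0.07, limma, adjusted p = 1.73e-05). The other Nrf2 targets were the cystine carrier Slc7a11 (0.47) and the reductase Txnrd1 (0.43), with limma's adjusted p = 0.0348 and 0.0134. Both calls were lost when the mouse was left out of the fit (adjusted p = 0.0875 and 0.102), that of Txnrd1 also without vehicle replicate 2 (adjusted p = 0.0553). The call of Slc7a11 was also lost without any single mouse other than CNO replicate 2 (up to 0.0999) and under either rescaling (up to 0.0607).

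Of 18 genes known to respond to glucocorticoids 3 were higher and 1 lower, with Ddit4 the lower one. Map3k6, a stress-activated kinase, was higher by 1.395 (SE 0.24, limma, adjusted p = 0.0153), and Per1 was the next. Nfkbia, an inhibitor of NF-kappa B, was called at 0.33 (SE 0.07, limma, adjusted p = 0.043), and its call was lost without each of the 8 mice in turn (up to 0.113).

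Of 24 genes of glycogen, glucose and lactate handling, 5 were higher and none lower. Hk2, the inducible hexokinase, had 5.70, 4.37, 5.78 and 9.19 CPM in vehicle IP and 14.3, 19.99, 20.8 and 25.1 CPM in CNO IP. Its input values overlapped, at 12.4, 7.52, 11.9 and 22.4 CPM with vehicle and 11.7, 14.4, 16.6 and 16.1 CPM with CNO. The difference was 1.49 (SE 0.12, limma, adjusted p = 0.000484). Slc16a3, a lactate transporter, was higher by 0.67 (SE 0.13, limma, adjusted p = 0.0216), a call lost without CNO replicate 5 or vehicle replicate 2 or 5 (up to 0.0707). Pfkfb3, which makes an activator of glycolysis, was higher by 0.98 (SE 0.11), and Slc2a1, the glucose transporter GLUT1, by 0.73 (SE 0.10), with limma's adjusted p = 0.00216 and 0.00504. Ppp1r3c and Ppp1r3g, subunits that direct a phosphatase to glycogen, rose by 1.62 and 1.57 in IP and by 1.24 and 1.39 in input. Ppp1r3g was not called on the difference (0.18, SE 0.14, limma, adjusted p = 0.584). The call of Ppp1r3c (0.38, SE 0.09, limma, adjusted p = 0.0458) was lost without any single mouse other than CNO replicate 4 (up to 0.135), and when the mouse was left out of the fit or either rescaling was used (up to 0.0776).

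Some genes rose in both fractions with a difference that did not pass the threshold. Dio2, the deiodinase that activates thyroid hormone, had 392.4, 391, 401 and 323 CPM in vehicle IP and 1137, 1234, 1123 and 1277 CPM in CNO IP, and 69.9, 77.3, 79.6 and 55.8 CPM in vehicle input and 170, 164, 179 and 187 CPM in CNO input. It rose by 1.67 and 1.32, and the difference of 0.34 (SE 0.10) did not pass (limma, adjusted p = 0.0991), although limma-voom called it higher. Mt2, a metallothionein, rose by 1.37 in IP and 1.28 in input, with a difference of 0.09 (SE 0.08, limma, adjusted p = 0.631). Ptx3, a secreted pentraxin, rose by 3.33 and 2.97, with a difference of 0.36 (SE 0.14, limma, adjusted p = 0.196). For these genes and for Fosl1, IP was above input with vehicle. Dio2 had IP minus input between 2.33 and 2.53 in the vehicle mice and between 2.65 and 2.91 in the CNO mice, without overlap. Mt2 had a vehicle value of at most 2.28.

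Over the 379 genes that rose at least 2-fold within IP, the input change was read against where the transcript lay in vehicle mice. The 83 genes with a vehicle IP minus input below -0.5 had median changes of 1.80 in IP and 0.27 in input. From -0.5 to 0.5 the medians of 133 genes were 1.56 and 0.40, and from 0.5 to 1.5 those of 105 genes were 1.59 and 0.57. The 58 genes at 1.5 or above had medians of 1.75 and 1.25. The median input change was larger in each more IP-enriched class. The genes were chosen for their rise in IP, and the classes and the changes share the vehicle libraries, so this is a description with no test.

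Fewer genes were lower. Pik3ip1, an inhibitor of phosphoinositide 3-kinase, had 110, 96.8, 103 and 98.5 CPM in vehicle IP and 46.4, 48.4, 44.3 and 38.8 CPM in CNO IP. Its input level was 37.1, 33.9, 34.7 and 35.4 CPM with vehicle and 29.3, 29.98, 29.3 and 24.9 CPM with CNO. Neither fraction overlapped, and the difference was -0.88 (SE 0.06, limma, adjusted p = 0.000214). Nim1k, a kinase related to AMPK, had 61.0, 58.8, 69.8 and 68.8 CPM in vehicle IP and 26.8, 22.9, 28.6 and 25.3 CPM in CNO IP, with a difference of -0.88 (SE 0.11, limma, adjusted p = 0.00356). Scml4, a polycomb-related gene, had the largest negative difference under the naming rule, -1.31 (SE 0.19, limma, adjusted p = 0.00686), and fell from a mean of 6.13 to 3.25 CPM in IP. The call of Scml4 was lost with the replicate number as a block (limma, adjusted p = 0.0773).

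For most of the other genes among the 12 largest negative differences, leaving out 1 mouse ended the call. The calls of Shisa2 (-1.21, SE 0.21) and Pdgfrb (-0.80, SE 0.14), with limma's adjusted p = 0.016 and 0.0136, were lost without vehicle replicate 2 (up to 0.0581 and 0.0504), and that of Shisa2 also without CNO replicate 3 or 5. Mettl20 (-0.80, SE 0.14, limma, adjusted p = 0.0168) lost its call without CNO replicate 5 or vehicle replicate 2 or 4 (up to 0.0605). Rgma (-0.80, SE 0.16, limma, adjusted p = 0.0288), a guidance molecule and BMP coreceptor, lost its call without any single mouse other than CNO replicates 2 and 4 (up to 0.0903). Sall3 (-0.76, SE 0.15, limma, adjusted p = 0.0259), a zinc finger factor, lost its call without CNO replicate 2, 4 or 5 or vehicle replicate 4 or 5, each left out alone (up to 0.0794). Trp53cor1, Hykk and Frem2 (-1.08, -0.81 and -0.75) lost theirs too (limma, adjusted p = 0.0252, 0.0377 and 0.0424 with all mice). For Trp53cor1 that was without CNO replicate 3 or vehicle replicate 2, 4 or 5 (up to 0.0784), for Hykk without any single mouse other than CNO replicate 3 and vehicle replicate 4 (up to 0.106), and for Frem2 without any other than vehicle replicate 5 (up to 0.118).

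The Notch, BMP and hedgehog pathways, which set and hold glial identity during development and in adult astrocytes, had small negative medians. At an unadjusted p under 0.05 by limma, 5 Notch, 6 BMP and 5 hedgehog and Wnt genes were lower, and 2, 4 and 1 were higher. Limma-voom called 4, 5 and 2 lower and 1, 2 and 0 higher. Of 19 Notch genes 1 was higher and 2 lower, with a median difference of -0.15 that became 0.02 without CNO replicate 2. The higher one was the ligand gene Dll1 (0.35, SE 0.08, limma, adjusted p = 0.043), whose call was lost without any single mouse other than vehicle replicate 4 (up to 0.121), when the mouse was left out of the fit, by limma-voom and under either rescaling. Hes5, a repressor that Notch induces, had 15.2, 21.7, 19.5 and 9.52 CPM in vehicle IP and 6.91, 5.73, 3.46 and 2.19 CPM in CNO IP, and 10.1, 14.03, 12.1 and 5.66 CPM in vehicle input and 7.64, 7.44, 4.73 and 3.89 CPM in CNO input. The IP groups do not overlap and the input groups do. Its IP minus input was between 0.59 and 0.75 with vehicle and between -0.83 and -0.14 with CNO, a difference of -1.12 (SE 0.13, limma, adjusted p = 0.00277). That call was lost when the mouse was left out of the fit (adjusted p = 0.365).

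The other lower Notch gene was Nrarp, a feedback inhibitor (-0.47, SE 0.11, limma, adjusted p = 0.043), whose call was lost without any single mouse other than vehicle replicate 3 (up to 0.123) and when the mouse was left out of the fit (adjusted p = 0.252). Hey1, another Notch target, fell by 0.79 within IP, and its difference of -0.42 (SE 0.10) did not pass (limma, adjusted p = 0.0541). It passed under 7 of the other settings tried, among them limma-voom and both rescalings. Of 21 BMP genes 1 was higher, the receptor gene Acvr1 (0.39, SE 0.08, limma, adjusted p = 0.03), whose call was lost without any single mouse other than vehicle replicate 4 (up to 0.0845) and when the mouse was left out of the fit (adjusted p = 0.0766). The 1 that was lower was Smad6, an inhibitory Smad (-0.97, SE 0.20, limma, adjusted p = 0.0337). Of 29 hedgehog and Wnt genes none was higher and 1 was lower, the hedgehog transducer Smo (-0.47, SE 0.10, limma, adjusted p = 0.0304), while 11 of the 29 fell within IP. The calls of Smad6 and Smo were each lost without any single mouse but one, CNO replicate 2 for Smad6 (up to 0.101) and CNO replicate 3 for Smo (up to 0.0965), and that of Smad6 also when the mouse was left out of the fit (adjusted p = 0.109). The hedgehog receptor gene Ptch1 (-0.49, SE 0.15) and the factor Gli2 (-0.78, SE 0.35) did not pass (limma, adjusted p = 0.104 and 0.278).

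In a small set the input moved further than the IP. Of the 806 genes that were higher, 57 had the larger change in input, and of the 150 lower 11 did. Snrnp70, a core protein of the U1 splicing particle, had 110, 111, 104 and 104 CPM in vehicle input and 69.1, 81.0, 94.5 and 91.6 CPM in CNO input, against 65.1, 67.6, 64.98 and 67.0 CPM and then 73.9, 73.9, 76.1 and 85.4 CPM in IP. The groups do not overlap in either fraction, and they moved apart in opposite directions. The difference was 0.58 (SE 0.09, limma, adjusted p = 0.00784), while the input change of -0.36 did not pass by itself (limma, adjusted p = 0.141). Akap8l, a nuclear anchoring protein, and Sfxn2, a mitochondrial carrier, were higher by 0.54 (SE 0.07) and 0.74 (SE 0.10), with limma's adjusted p = 0.00312 and 0.00482. Their input changes were -0.29 and -0.37, and neither passed.

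Lists for standing functions, of astrocytes and of cells at large, held few calls or none in the main test on the difference. Of 19 genes of glutamate and GABA uptake and metabolism none was called in either direction on the difference, and none within IP or within input. No gene of that list had an unadjusted p under 0.05 by limma or a call by limma-voom. Of 18 potassium channel, water channel and gap junction genes 1 was higher (5.56%, against 4.96% of all genes tested) and none lower. That gene was Gjb2, connexin 26 (0.81, SE 0.19, limma, adjusted p = 0.0448). Its call was lost without any single mouse other than vehicle replicate 2 (up to 0.119) and under either rescaling (up to 0.0655). Of 81 cytosolic ribosomal protein genes 2 were higher and none lower, with a median difference of 0.25, and 19 rose within IP. At an unadjusted p under 0.05 by limma 33 of the 81 were higher (40.7%) and none lower, and limma-voom called 16 higher. The list's median IP minus input was between -1.72 and -1.50 in vehicle mice and between -1.43 and -1.13 in CNO mice, without overlap. The 2 called higher on the difference were Rps4x (0.57, SE 0.09, limma, adjusted p = 0.00787) and Rps6 (0.46, SE 0.10, limma, adjusted p = 0.0371). The call of Rps6 was lost without any single mouse other than CNO replicate 3 and vehicle replicate 5 (up to 0.113). It was also lost when the mouse was left out of the fit or either rescaling was used (up to 0.0646). Of 75 nuclear-encoded genes of oxidative phosphorylation 1 was higher, Atp5d (limma, adjusted p = 0.0384). Its call was lost without any single mouse other than CNO replicate 4 (up to 0.118) and under either rescaling (up to 0.0711). Of 33 proteasome subunits none was higher, with 6 higher at an unadjusted p under 0.05 by limma and 1 called higher by limma-voom. Over all genes tested 19.2% had an unadjusted p under 0.05.

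**Figure D5:**
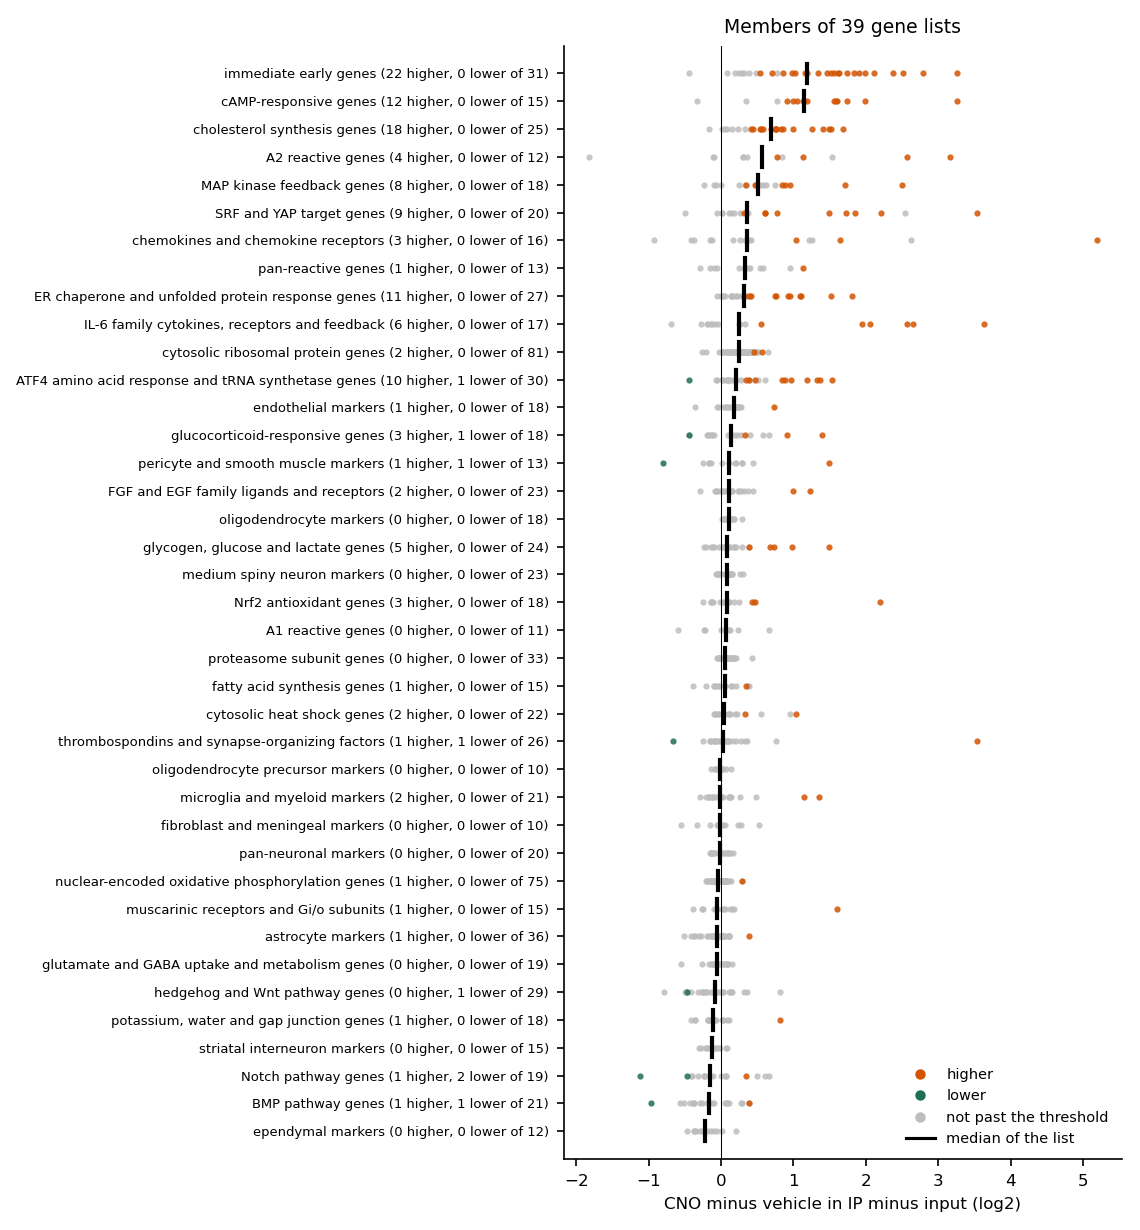
CNO minus vehicle difference in IP minus input (log2) for each gene tested in the 39 lists, 1 strip per list, with a mark at the list's median. The immediate early, cyclic AMP and cholesterol lists have medians of 1.19, 1.15 and 0.69, while the medians of the cell type marker lists lie between -0.22 and 0.18.

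Markers of other cell types were read because IP minus input also depends on their share of each fraction. No gene was called in either direction among 23 markers of medium spiny neurons, 15 of striatal interneurons, 20 of neurons at large, 18 of oligodendrocytes, 10 of oligodendrocyte precursors, 10 of fibroblasts and meninges, and 12 of ependyma. In these lists 1 ependymal gene had an unadjusted p under 0.05 by limma, and none was called by limma-voom. The median IP minus input of the interneuron markers was between 1.60 and 1.96 in vehicle mice and between 1.498 and 2.02 in CNO mice, so these transcripts were richer in IP in both groups. That of the ependymal markers was between 2.25 and 2.53 in vehicle mice and between 2.05 and 2.34 in CNO mice. That of the oligodendrocyte markers was between 0.05 and 1.42 and between 0.59 and 1.23, also on the IP side. That of the medium spiny neuron markers was between -1.79 and -1.11 and between -1.60 and -1.13, on the input side in both. Which cells in the IP the changes came from was not tested.

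Of 21 microglia and myeloid markers 2 were higher (9.52%, against 4.96% of all genes tested), Cd68 and Olfml3. Their median IP minus input was between -4.34 and -4.06 in vehicle mice and between -4.26 and -3.98 in CNO mice, and their summed IP level ranged from 86.7 to 153 CPM with vehicle and from 105 to 128 CPM with CNO. Cd68, a lysosomal protein of phagocytes, had 2.47, 2.28, 2.19 and 3.02 CPM in vehicle IP and 5.35, 5.28, 5.71 and 5.90 CPM in CNO IP, with overlapping input values between 10.7 and 22.2 CPM. It was higher by 1.35 (SE 0.19, limma, adjusted p = 0.00616), while C1qa and Tyrobp, 2 defining microglial genes, differed by -0.01 (SE 0.40) and -0.16 (SE 0.43) and did not pass (limma, adjusted p = 0.994 and 0.897). The call of Olfml3 (1.15, SE 0.26, limma, adjusted p = 0.0451) was lost without any single mouse other than vehicle replicate 5 (up to 0.124), and when the mouse was left out of the fit or either rescaling was used (up to 0.227).

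Vascular markers were read in the same way. Of 18 endothelial markers 1 was higher, Slc2a1 (5.56%, against 4.96% of all genes tested). The list's summed IP level was between 147 and 178 CPM with vehicle and between 283 and 305 CPM with CNO, without overlap. That sum includes Slc2a1 itself, which astrocytes also express and which went from a mean of 94.0 to 226 CPM in IP. Of 13 pericyte and smooth muscle markers 1 was higher (7.69%, against 4.96% of all genes tested) and 1 lower (7.69%, against 0.922%). The higher one was Tagln, an actin-binding protein (1.49, SE 0.22, limma, adjusted p = 0.00754), and the lower one Pdgfrb. The summed IP level of the 13 markers was between 257 and 268 CPM with vehicle and between 189 and 222 CPM with CNO. Their median IP minus input went the other way without overlap, from between -1.30 and -1.03 in vehicle mice to between -0.80 and -0.49 in CNO mice. That of the endothelial markers overlapped, between -2.40 and -2.17 with vehicle and between -2.43 and -1.94 with CNO. The part of these cells in the values of Slc2a1, Tagln and Pdgfrb was not tested.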

How the data were processed

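Gene-level log2 CPM values, 1 file per library, were deposited by the authors. They used bcl2fastq 2.17, STAR, HTSeq, limma and build mm10, per the submitters' processing notes, while the counter's strand setting and annotation are not given here. Library preparation started from 100 ng RNA and used a Nugen Ovation V2 kit, paired-end, per the labels' protocols. The deposited log2 CPM values carry a prior count of 0.25 and gave back whole reads for 100% of values within 0.01 read.

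A gene was tested if its reads summed to 15 or more and 4 or more libraries reached the CPM that 10 reads give in the median library. IP minus input per mouse was compared between CNO and vehicle mice with limma 3.58.1 in R 4.3.3 (lmFit, eBayes with trend and robust, two-sided), with Benjamini-Hochberg adjustment over 16264 genes and a threshold of 0.05. CNO was also compared within IP and within input. The mouse code joins an IP and an input library of 1 animal, and their deviations from the group means correlated with r from 0.308 to 0.678 over 14154 genes. The code was tested on simulated data.

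Named genes were the 12 largest differences in each direction among called genes whose groups do not overlap and that reach a mean of 5 CPM in a group, 6 in which input moved further, up to 4 per list and direction (the 2 smallest p where none passed), and Thbs1, Fos, Rpl22, Chrm4, Aldh1l1, Gfap and Slc1a2, 115 in all. A further 54 were chosen after their values were seen. A few of these genes are not reported here. The comparison, the 39 lists and the promoter motifs were chosen with earlier results of these data known. Gene lists are described by counts, with no test. Gene positions are from GENCODE M21 and promoter windows from RefSeq GRCm38.p6. CPM values are the deposited ones raised from the log2 scale. Alternatives were another scaling, prior count, filter or variance model, limma-voom on the recovered reads, fits with another block, and each mouse left out. 1 of 2 identical lines was dropped, and 2 lines that share a symbol are not named.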

Additional observations from a re-analysis of the deposited data

Results flagged for a closer look

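IP minus input differed between CNO and vehicle mice for 956 genes (limma, adjusted p under 0.05), which is the comparison reported above. In 16 of 338 groups of 4 mice, 1 mouse stood apart from the other 3 by more than Dixon's 95% critical value for the gap over the range, and chance alone puts about 1 in 20 groups there. Among CNO mice, replicate 4 had the lower IP minus input for Fosl2 (1.80) and stood apart for Klf4 (1.54), Ppp1r3g (2.33) and Tyrobp (-5.98), and replicate 2 stood apart for Rgma (1.27). Among vehicle mice, replicate 5 stood apart for Il6ra (-1.50), Rgs2 (-2.17), Hspa5 (0.0726), Manf (-0.65) and Elovl6 (0.39). Vehicle replicate 3 stood apart for Klf4 (-1.09), Junb (-0.91) and Chac1 (0.28), and vehicle replicate 4 for Bag3 (2.49), Slc1a2 (3.85) and Tyrobp (-5.79). The calls of Fosl2, Klf4, Rgs2, Il6ra, Junb, Chac1, Hspa5, Manf and Bag3 held when each mouse was left out in turn, while those of Elovl6 and Rgma did not, and Ppp1r3g, Slc1a2 and Tyrobp were not called.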

How the results depend on the processing

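Against 806 genes higher and 150 lower, leaving out 1 mouse gave 486 to 669 higher and 56 to 111 lower, with the fewest without vehicle replicate 2 and then without CNO replicate 5 (526 and 76). The 10 genes at least 2-fold lower became 5 to 11. The genes lower were 93 with no replicate block (the mouse left out of the fit), 232 with limma-voom, 325 with upper quartile scaling, 259 with median centring and 235 with a mean of at least 1 CPM in IP and in input. The 10 at least 2-fold lower became 4 with no replicate block and 6 with that filter. Within IP, the 1075 genes that fell became 1958 with upper quartile scaling and 581 to 1189 without 1 mouse. Within input, 29 fell and 130 rose, against 4 to 27 and 86 to 157 without 1 mouse, the 86 being without CNO replicate 5. The cause was not tested.

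Replicate numbers do not mark a shared animal, and the correlations of same-numbered CNO and vehicle mice were 0.0882, 0.0011, -0.2309 and 0.1654. With the replicate number as a replicate block, 350 genes were higher, 33 lower and 4 at least 2-fold lower. Calls lost there included those of Bag3, Map3k6, Per1, Jun, Rps4x, Snrnp70, Insig1 and Slc2a1 (limma, adjusted p from 0.0506 to 0.0923). Within IP 1229 rose and 701 fell, and within input 94 rose and 7 fell.

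Of 120 named genes that passed, 60 kept their call under all 17 settings and none reversed. Without some mouse 42 lost it, and 54 lost it in another setting, 25 of these with the mouse left out of the fit. Of 663 list medians under an alternative, 9 moved by more than the spread between mice, 5 of them for the Nrf2 list. Precision is limited by 4 mice per group and, for genes near 1 CPM such as Il6, by few reads.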
